A study of Mus musculus with 14 samples.

Results

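DNA repair and damage checkpoint genes were followed in mouse liver after furan, by repair pathway. The set held 34 genes, chosen by name for their roles in repair and found on the array through the RefSeq accession given for each probe. Probes matched 33 of the 34 genes (40 probes), and 30 genes passed the filter on dim probes, out of 21975 features tested in all. The 30 covered homologous recombination (7 genes), the Fanconi anemia pathway (1), end joining (1), base excision and single-strand break repair (9), nucleotide excision repair (5), mismatch repair (1), translesion synthesis (1), direct reversal (1) and the damage checkpoint kinases (4). The 4 genes not tested were Rad51c, which had no matched probe, and Brca1, Fancd2 and Fanci, whose probes were too dim.

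The livers came from 14 female B6C3F1 mice, a hybrid laboratory strain, bought at 5 to 6 weeks of age. Corn oil alone went by gavage to 4 controls, furan at 1 mg/kg body weight to 5 mice and furan at 8 mg/kg to 5 mice, for 3 weeks. Every mouse, controls included, had bromodeoxyuridine (BrdU) in its drinking water during the last 5 days, and livers were removed 4 h after the final gavage. BrdU is a thymidine analogue that dividing cells build into their DNA, and since all groups received it, any effect of BrdU itself cannot be told apart here. Furan is a volatile food contaminant that liver cytochrome P450 turns into a reactive dialdehyde able to bind proteins and DNA. Each liver RNA, labelled with Cy5, was hybridised against a universal mouse reference RNA labelled with Cy3. Values are log2 ratios of liver over reference, and the ratio of 1 gene is not compared with that of another. The tissue was whole liver, in which fewer cells of a type and less RNA per cell cannot be told apart.

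DNA repair works through parallel pathways, each suited to a kind of damage. Small base lesions are cut out by base excision repair, bulky adducts by nucleotide excision repair, replication errors by mismatch repair, and double-strand breaks are joined end to end or copied from the sister chromatid by homologous recombination. Alkylated guanine is reversed directly, some lesions are copied over by specialised polymerases, and the kinases Atm and Atr pass the alarm to Chek1 and Chek2, which halt the cell cycle.

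The liver signal stood well above background for 41.4% to 53.6% of 55681 probes, and all 15 of 15 hepatocyte markers were above background on every array. A principal component analysis put 30.7% of the variance on its first axis, and the 3 arrays of slide 3, 1 from each group, lay at the upper end with scores of 22.9 to 34.8, against -22.9 to 13.3 for the other arrays. The slide was part of every reported test, as the submitters describe a randomized block design. Results without slide 3 are given for the members that passed in a comparison, and not for each of the other repair genes. Of the 30 repair genes tested, 26 were above background on all 14 arrays. The exceptions were Rad54l (12 arrays), Chek1 (9), Exo1 (8) and Chek2 (7).

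At 8 mg/kg the repair genes as a set stayed close to control. In the limma fit with slide as a block, 1 of 30 members passed an adjusted p of 0.05 against control, Mgmt, which rose. The same test called 4.09% of all features, 2.73% higher and 1.36% lower. The median log2 difference was -0.03 over the 30 members and 0.00 over all features, with 14 members above 0 and 16 below. At an unadjusted p under 0.05 there were 7 members (Mgmt, Polk, Atr, Xpc, Neil1, Xrcc3 and Parp1) of 30, and the share of all features was 20.3%. In 2 members, Mgmt and Polk, every liver at 8 mg/kg lay above every control, and 5.58% of all features had groups that did not overlap. The standard errors of the members ran from 0.08 to 0.20, and 27 of the 29 members that did not pass had a 95% interval within 0.5 log2 units of 0. Neil1 and Polk were the other 2, with intervals of -0.90 to -0.06 and 0.12 to 0.56. These intervals hold for the reported processing. Over 29 alternative analyses the difference ran from 0.25 to 0.91 for Polk, -0.90 to -0.16 for Neil1 and -0.10 to 0.27 for Fanca. The 27 include Exo1, Chek1 and Rad54l, each above background on 2 of 4 control arrays, and Chek2, on 0 of 4.

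At 1 mg/kg no member passed. The limma fit called 0 of 30 members against control and 0% of all features, and the smallest adjusted p among the members was 0.706. With no adjustment, 1 member (Neil1) had a p under 0.05, against 6.86% of all features. No member had groups that did not overlap, and 0.824% of all features did. The median difference was -0.01 over the members and 0.03 over all features, and 29 of the 30 intervals lay within 0.5 of 0.

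Between the furan doses, 2 of 30 members passed: Polk was higher and Xrcc3 lower at 8 than at 1 mg/kg. That comparison called 5.29% of all features, 2.41% higher and 2.88% lower. At an unadjusted p under 0.05 there were 6 members, against 21.3% of all features. Groups did not overlap for 0 members and for 3.63% of all features. The comparison shares its 8 mg/kg livers with the comparison against control, so the 2 sets of differences are not independent.

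**Figure D1:**
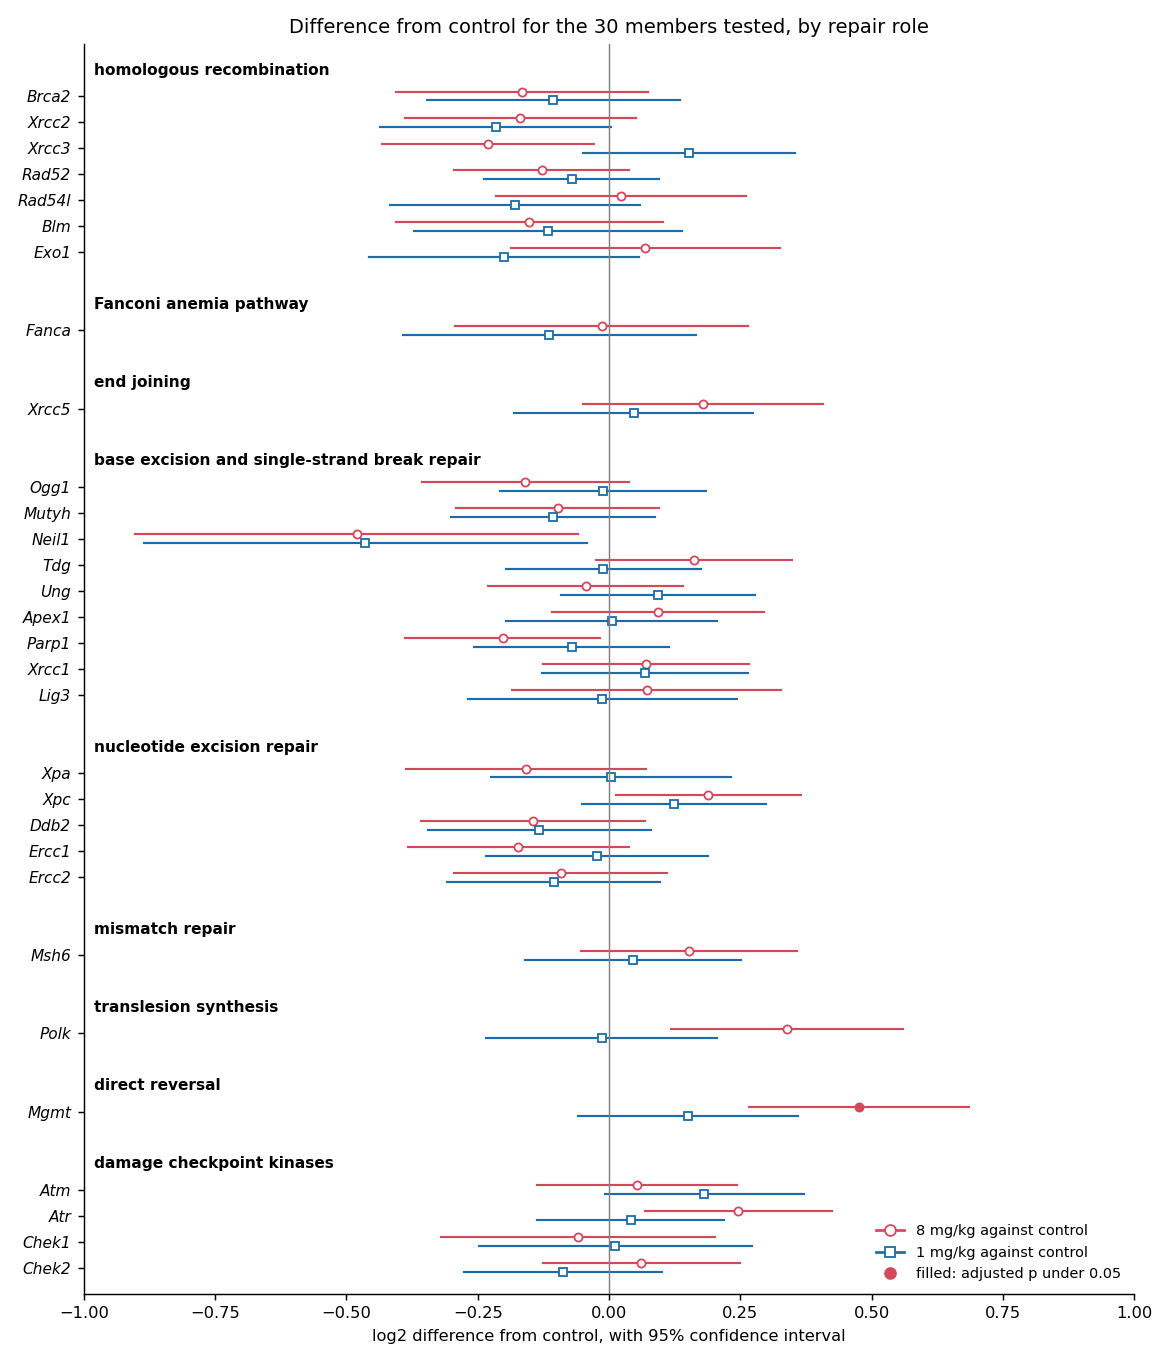
Log2 difference from control (horizontal axis) of the 30 members tested, grouped by repair role, at 8 mg/kg (circles) and 1 mg/kg (squares), with bars for 95% confidence intervals from the limma fit. Mgmt at 8 mg/kg, at 0.48, is the one filled symbol (adjusted p under 0.05), and the intervals of most other members cross 0.

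Direct reversal was represented by Mgmt, the methyltransferase that takes the alkyl group off alkylated guanine and is used up in doing so. Its log2 ratios were 0.74, 0.58, 0.88 and 0.93 in controls, 0.94, 0.72, 0.97, 0.87 and 1.13 at 1 mg/kg, and 1.19, 1.10, 1.38, 1.32 and 1.26 at 8 mg/kg. The 8 mg/kg livers were all above the controls, while the 1 mg/kg livers spanned the upper part of the control range and reached past it. Mgmt rose by 0.48 ± 0.10 (SE) on the log2 scale at 8 mg/kg, a ratio of 1.39, with an adjusted p of 0.0167. On the 4 slides that held both groups the difference was 0.44, 0.68, 0.22 and 0.39, higher each time. At 1 mg/kg the difference from control was 0.15 ± 0.10 (adjusted p = 0.769), and between the doses it was 0.32 ± 0.09 (adjusted p = 0.0508). The difference between the doses passed in 8 of 29 alternative analyses.

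The call on Mgmt at 8 mg/kg held in 22 of 29 alternative analyses, where the difference ran from 0.37 to 0.56 over all 29. It was lost without control replicate 1 (0.47, adjusted p = 0.0582), without control replicate 2 (0.40, adjusted p = 0.0675) and without 8 mg/kg replicate 5 (0.45, adjusted p = 0.0558). It was also lost with the scanner's processed signals (adjusted p = 0.0645), with the liver channel alone (0.0956) and with only the arrays of the 2 groups (0.0802). Without slide 3 the difference was 0.56 (adjusted p = 0.0268). The genes most like Mgmt over the 14 arrays, after slide means were removed, were Entpd5 (r = 0.96), Abhd4 (r = 0.96) and Polr2e (r = 0.96). The search covered the tested features that had a gene symbol. These correlations share arrays and dose groups and are given as a description.

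The stretches upstream of the start sites of the 3 members that passed in a comparison are shown, to set the genes beside the motifs searched for. RefSeq (GRCm38.p6) gave windows of 250 bases before to 50 bases after each start for 26 member genes (30 windows) and for 32851 promoters in all. Both strands were searched for 5 motifs. These were the p53 half-site, the E2F sites TTTCCCGC and TTTGGCGC, the cell cycle homology region TTTGAA, and TGACNNNGC, the core of the antioxidant response element. Mgmt had 2 annotated starts, and the window of the outer one (chr7:136894336-136894585, plus strand) held TGACTCCGC, written in capitals, whose first base lay at -55 from the start.
Mgmt, outer start: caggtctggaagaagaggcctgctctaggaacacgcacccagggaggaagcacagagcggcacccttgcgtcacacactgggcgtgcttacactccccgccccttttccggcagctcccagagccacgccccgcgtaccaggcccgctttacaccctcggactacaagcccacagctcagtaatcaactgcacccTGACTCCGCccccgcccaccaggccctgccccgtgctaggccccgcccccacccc
The matched core was present in 12.4% of all promoters and in 5 of the 26 member genes. Of the 250 bases, 67.2% were G or C. The window of the inner Mgmt start held none of the 5 motifs.

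Polk had an outer start (chr13:96542580-96542829, minus strand), with none of the 5 motifs, and an inner start (chr13:96519188-96519437, minus strand) with a p53 half-site match in capitals at -231. Xrcc3 (chr12:111813880-111814129, minus strand) had none of the motifs. All sequences read 5′ to 3′ along the gene's strand and end at the base before the start.
Polk, outer start: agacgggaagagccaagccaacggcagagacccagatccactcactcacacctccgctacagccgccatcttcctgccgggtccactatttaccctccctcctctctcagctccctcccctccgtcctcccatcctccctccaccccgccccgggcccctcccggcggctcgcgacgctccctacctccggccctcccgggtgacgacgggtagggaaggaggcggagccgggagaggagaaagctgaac
Polk, inner start: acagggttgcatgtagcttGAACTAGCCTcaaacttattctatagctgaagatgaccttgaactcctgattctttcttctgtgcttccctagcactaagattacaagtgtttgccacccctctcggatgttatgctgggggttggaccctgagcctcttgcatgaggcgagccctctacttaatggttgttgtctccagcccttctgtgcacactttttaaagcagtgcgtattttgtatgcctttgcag
Xrcc3: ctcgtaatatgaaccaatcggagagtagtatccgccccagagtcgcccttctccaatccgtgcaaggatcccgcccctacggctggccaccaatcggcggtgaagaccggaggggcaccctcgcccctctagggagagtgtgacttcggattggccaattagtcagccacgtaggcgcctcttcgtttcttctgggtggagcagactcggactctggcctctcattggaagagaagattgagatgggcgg
The p53 half-site matched 8.36% of all promoters and 3 member genes, Fanca, Neil1 and Polk. TTTCCCGC matched 1.07% of all promoters and 3 member genes, Brca2, Chek2 and Msh6. TTTGGCGC (0.514% of all promoters) and TTTGAA (17.9%) matched 0 of the 30 member windows. No match of 1 motif overlapped a match of another. A match is a run of letters and says nothing about binding in these livers.

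Translesion synthesis was represented by Polk, DNA polymerase kappa, which copies past bulky guanine adducts. Its log2 ratios were -0.96, -0.99, -1.21 and -0.80 in controls, -1.13, -0.71, -0.89, -0.97 and -1.15 at 1 mg/kg, and -0.61, -0.71, -0.60, -0.73 and -0.44 at 8 mg/kg. The 8 mg/kg livers were all above the controls, but 1 liver at 1 mg/kg reached their range. Against control the difference was 0.34 ± 0.10 (adjusted p = 0.0814), and within slides it was 0.35, 0.55, 0.50 and 0.07. Polk was 0.35 ± 0.09 higher at 8 than at 1 mg/kg (adjusted p = 0.046), and higher on all 5 slides (0.11 to 0.52). At 1 mg/kg the difference from control was -0.01 ± 0.10.

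The call between the doses was narrow and held in 11 of 29 alternatives. Leaving out any 1 of the 10 furan arrays ended it, with differences of 0.30 to 0.41 and adjusted p from 0.0504 to 0.14, as did leaving out control replicate 1 (0.35, adjusted p = 0.0542). It also ended without slide 3 (0.38, adjusted p = 0.0679) and without the slide that held no control (0.41, adjusted p = 0.058). With the liver channel alone the difference was 0.73 between the doses and 0.91 against control (adjusted p = 0.0162 and 0.00813). That setting used the scanner's processed liver signal. Ratios of the scanner's processed signals gave 0.69 and 0.91 (adjusted p = 0.0404 and 0.0234). Against control Polk passed in 5 of 29 alternatives. A second, dimmer Polk probe was above background on 0 control arrays and on 3 of 5 arrays at each dose, so it gives no measured change from control. Between the doses it gave 0.08 ± 0.09. The genes most like Polk over the 14 arrays were Ovgp1 (r = 0.96), Cdc25a (r = 0.94) and Ppp2r2d (r = 0.92).

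**Figure D2:**
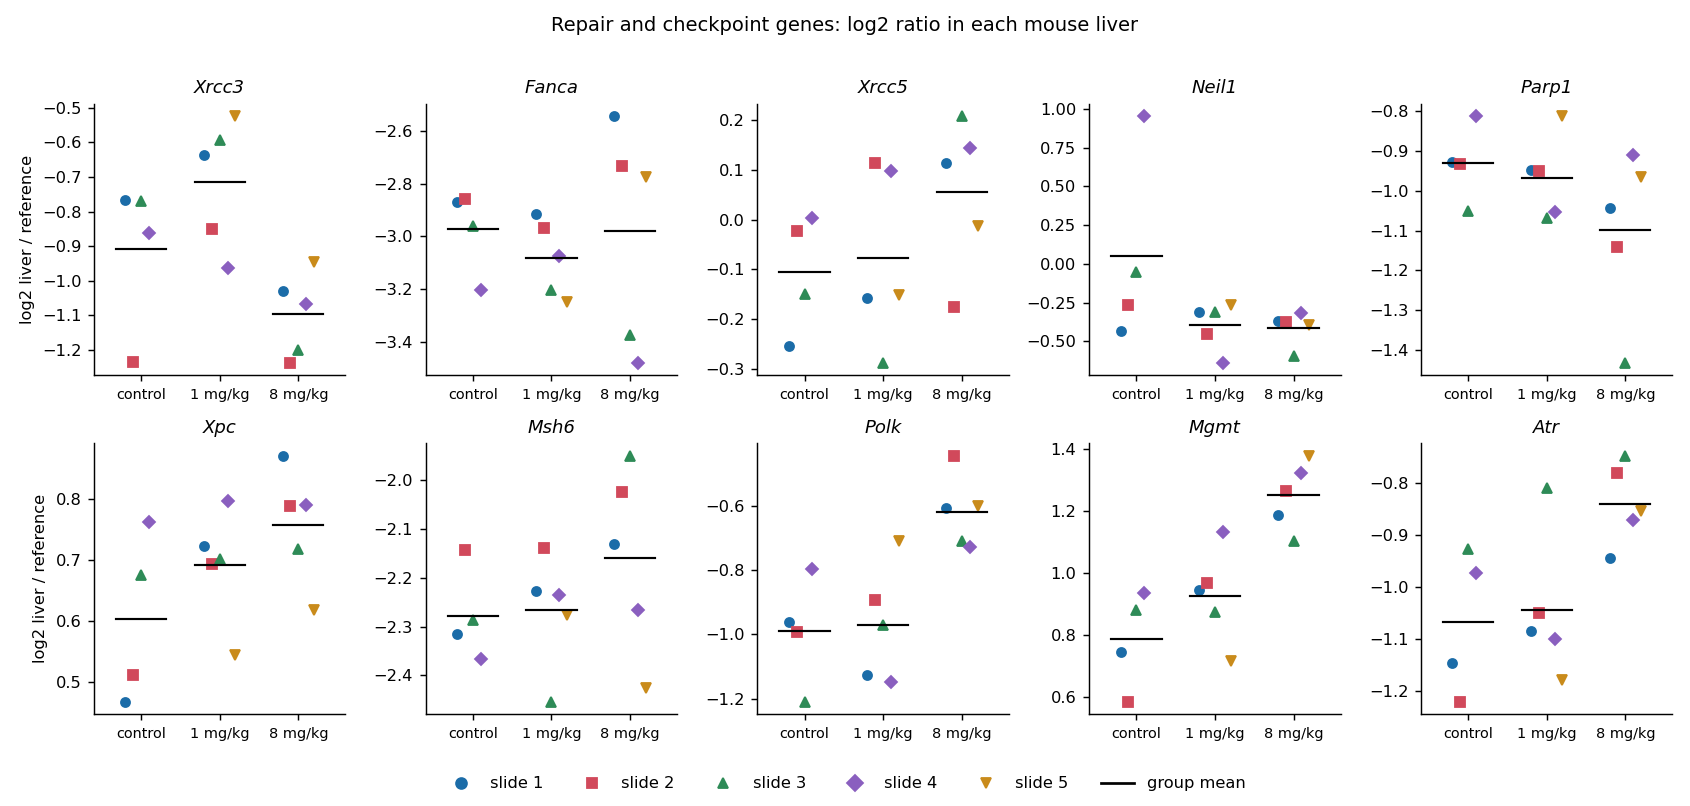
Log2 ratio of liver over reference (vertical axis, a scale for each gene) of 10 members in each mouse, by group, with a colour and symbol for each slide and a bar at the group mean. Mgmt and Polk at 8 mg/kg sit above all controls, and 1 control holds the high Neil1 value of 0.95.

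Homologous recombination copies the sister chromatid to mend breaks and stalled forks, and 0 of its 7 tested members passed at either dose against control. Over all features 4.09% were called at 8 mg/kg and 0% at 1 mg/kg. The median difference of the 7 members was -0.15 at 8 mg/kg, with 2 above 0 and 5 below. At 1 mg/kg it was -0.12, with 1 above 0. Both medians were taken against the same 4 controls, so they are not independent. Between the doses the median was -0.04, with 3 above 0 and 4 below. Xrcc3, which acts in strand exchange and fork protection, had ratios of -0.77, -1.24, -0.77 and -0.86 in controls, -0.64, -0.52, -0.85, -0.59 and -0.96 at 1 mg/kg, and -1.03, -1.20, -0.95, -1.07 and -1.24 at 8 mg/kg. The 1 mg/kg livers lay high and the 8 mg/kg livers low, with a slight overlap, and the controls spread across both. Xrcc3 was lower by 0.38 ± 0.09 at 8 than at 1 mg/kg, a log2 difference of -0.38 (adjusted p = 0.022), on 5 of 5 slides. Against control the difference was -0.23 ± 0.09 at 8 mg/kg (adjusted p = 0.186) and 0.15 ± 0.09 at 1 mg/kg (adjusted p = 0.758). The call between the doses held in 16 of 29 alternatives. It was lost without any 1 of 1 mg/kg replicates 1 to 4 or 8 mg/kg replicates 1 to 3 (differences of -0.38 to -0.33, adjusted p from 0.0547 to 0.0744). It was also lost without slide 3 (-0.33, adjusted p = 0.0789) and without the slide that held no control (-0.37, adjusted p = 0.0744). The genes most like Xrcc3 were Aptx (r = 0.95), Adi1 (r = 0.95) and Mtif3 (r = 0.95).

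The rest of the recombination genes did not pass in any comparison. Brca2, a mediator of strand exchange at breaks, averaged -1.95 ± 0.13 (SD, n = 4) in controls and -2.12 ± 0.27 (SD, n = 5) at 8 mg/kg, a fitted difference of -0.17 ± 0.11. Xrcc2, which acts in the same pathway, differed by -0.17 ± 0.10 at 8 mg/kg and by -0.22 ± 0.10 at 1 mg/kg. Rad52, which anneals single strands, differed by -0.13 ± 0.08, and Blm, a helicase that dissolves crossed strands, by -0.15 ± 0.12 at 8 mg/kg. Rad54l, a DNA translocase of the Snf2 family, differed by 0.02 ± 0.11. Exo1, an exonuclease that widens single-stranded gaps, was low, with ratios of -4.47 to -3.47 in controls and -4.25 to -3.31 at 8 mg/kg. Its difference was 0.07 ± 0.12 against control and 0.27 ± 0.11 between the doses (adjusted p = 0.173). Only 2 of 4 control arrays read it above background, with 2 of 5 at 1 mg/kg and 4 of 5 at 8 mg/kg. Both differences therefore rest in part on readings at background. Brca1, the scaffold that steers breaks into recombination, was not well above background on any array, and its ratios ran from -0.71 to 0.01 over all livers with no test.

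The Fanconi anemia pathway opens crosslinked DNA. Fanca, a subunit of its core ubiquitin ligase, had ratios of -2.87, -2.86, -2.96 and -3.20 in controls, -2.91, -3.25, -2.97, -3.20 and -3.07 at 1 mg/kg, and -2.54, -3.37, -2.78, -3.48 and -2.73 at 8 mg/kg. Livers at 8 mg/kg fell on both sides of the controls, 3 above all of them and 2 below. The difference at 8 mg/kg was -0.01 ± 0.13, and its sign turned in 8 of 29 alternatives. Fancd2 and Fanci, the pair that the core complex marks with ubiquitin, were near background: Fancd2 on every array, and Fanci on all but 1 array at 8 mg/kg. No difference is given for either gene.

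End joining was represented by Xrcc5, a subunit of the Ku dimer that caps broken ends. Its ratios were -0.25, -0.02, -0.15 and 0.00 in controls, -0.16, -0.15, 0.11, -0.29 and 0.10 at 1 mg/kg, and 0.11, 0.21, -0.01, 0.14 and -0.17 at 8 mg/kg. The groups overlapped. The difference was 0.18 ± 0.11 at 8 mg/kg (adjusted p = 0.368) and 0.05 ± 0.11 at 1 mg/kg.

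Base excision and single-strand break repair had 9 members, and 0 passed in any comparison. Over all features 4.09% were called at 8 mg/kg against control, 0% at 1 mg/kg and 5.29% between the doses. At 8 mg/kg against control 4 members lay above 0 and 5 below, with a median of -0.04. Neil1, a glycosylase that removes oxidised pyrimidines, had the widest interval. Its ratios were -0.43, -0.26, -0.06 and 0.95 in controls, -0.31, -0.26, -0.45, -0.31 and -0.64 at 1 mg/kg, and -0.37, -0.60, -0.40, -0.32 and -0.38 at 8 mg/kg. Control replicate 4 was far above the rest, and the other 3 controls overlapped both furan groups. The fitted difference was -0.48 ± 0.20 at 8 mg/kg (adjusted p = 0.187) and -0.46 ± 0.20 at 1 mg/kg (adjusted p = 0.706). Without control replicate 4 it was -0.16 ± 0.12 and -0.14 ± 0.12, so that 1 liver carried most of both differences.

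Parp1, which senses strand breaks and builds poly(ADP-ribose) there, had ratios of -0.93, -0.93, -1.05 and -0.81 in controls, -0.95, -0.81, -0.95, -1.07 and -1.05 at 1 mg/kg, and -1.04, -1.43, -0.96, -0.91 and -1.14 at 8 mg/kg. Livers at 8 mg/kg tended low and overlapped the controls, with the lowest on slide 3. The difference was -0.20 ± 0.09 at 8 mg/kg (adjusted p = 0.204) and was below 0 on 4 of 4 slides (-0.38 to -0.10). The glycosylases that start the pathway stayed near control at 8 mg/kg. Ogg1, for oxidised guanine, differed by -0.16 ± 0.09, Mutyh, for adenine opposite it, by -0.10 ± 0.09, Tdg, for thymine in G-T pairs, by 0.16 ± 0.09, and Ung, for uracil, by -0.04 ± 0.09. Apex1, the endonuclease that cuts at the bare site, differed by 0.09 ± 0.09. Xrcc1, the scaffold of the last steps, and its partner Lig3, a ligase, each differed by 0.07 (SE 0.09 and 0.12). At 8 mg/kg a second Lig3 probe gave -0.001 ± 0.11. A second Tdg probe, above background on 1 of 4 control arrays, gave 0.05 ± 0.11.

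Nucleotide excision repair had 5 members, with 1 above 0 and 4 below at 8 mg/kg (median -0.14), and 0 passed. Over all features 4.09% were called at that dose against control and 5.29% between the doses. Xpc, which finds the distorted helix, had ratios of 0.47, 0.51, 0.67 and 0.76 in controls, 0.72, 0.54, 0.69, 0.70 and 0.80 at 1 mg/kg, and 0.87, 0.72, 0.62, 0.79 and 0.79 at 8 mg/kg. Livers at 8 mg/kg leaned high, with 3 above all controls. The difference was 0.19 ± 0.08 (adjusted p = 0.212), above 0 on 4 of 4 slides (0.03 to 0.40). Ddb2, the damage sensor of chromatin, differed by -0.14 ± 0.10, with 8 mg/kg ratios of -1.07 to -0.69 against -0.95 to -0.62 in controls. Xpa, which checks the lesion, differed by -0.16 ± 0.11, and a second Xpa probe gave -0.17 ± 0.11. Ercc1, part of the nuclease that cuts on one side, differed by -0.17 ± 0.10. Ercc2, a helicase of the transcription factor that opens the helix, differed by -0.09 ± 0.09.

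Mismatch repair was represented by Msh6, 1 partner of the dimer that reads single mispairs. Its ratios were -2.31, -2.14, -2.29 and -2.37 in controls, -2.23, -2.28, -2.14, -2.45 and -2.23 at 1 mg/kg, and -2.13, -1.95, -2.43, -2.27 and -2.02 at 8 mg/kg. The groups overlapped, with 3 livers at 8 mg/kg above every control and 1 below every control. The difference was 0.15 ± 0.10 (adjusted p = 0.399).

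Of the 4 damage checkpoint kinases, 0 passed, beside 4.09% of all features called at 8 mg/kg against control and 5.29% between the doses. Atr, which answers single-stranded DNA at stalled forks, had ratios of -1.15, -1.22, -0.93 and -0.97 in controls, -1.08, -1.18, -1.05, -0.81 and -1.10 at 1 mg/kg, and -0.94, -0.75, -0.85, -0.87 and -0.78 at 8 mg/kg. Of the 8 mg/kg livers, 4 were above every control and the last fell just inside their range. The difference was 0.25 ± 0.08 (adjusted p = 0.113), above 0 on 4 of 4 slides (0.10 to 0.44), and it passed in 0 of 29 alternatives (0.19 to 0.30, adjusted p from 0.0971 to 0.412). Atm, which answers double-strand breaks, differed by 0.05 ± 0.09 at 8 mg/kg and 0.18 ± 0.09 at 1 mg/kg. A second Atm probe, above background on all 14 arrays, gave -0.05 ± 0.08 and -0.03 ± 0.08. Chek1, the kinase that Atr activates, differed by -0.06 ± 0.12. Chek2, the kinase that Atm activates, was above background on 0 of 4 control arrays, 4 of 5 at 1 mg/kg and 3 of 5 at 8 mg/kg. Its fitted difference from control, 0.06 ± 0.09 at 8 mg/kg, therefore rests on control readings at background. Between the doses Chek2 differed by 0.15 ± 0.08 (adjusted p = 0.308).

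**Figure D3:**
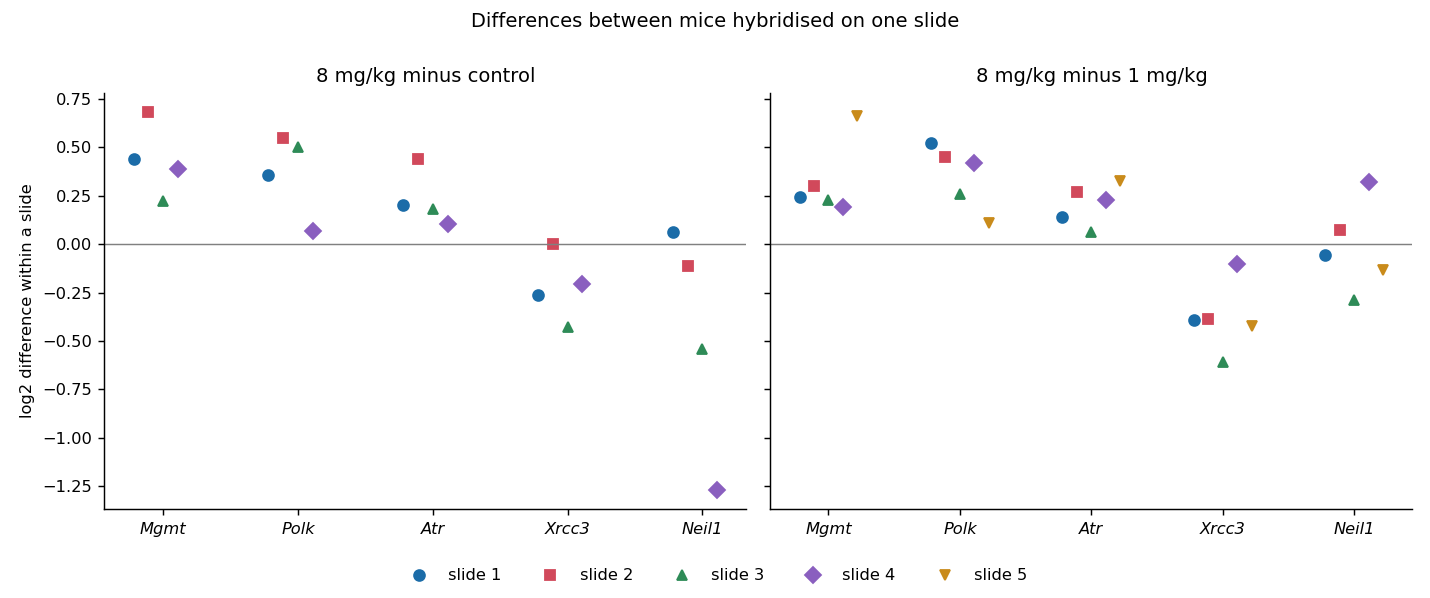
Log2 difference between mice hybridised on the same slide (vertical axis) for 5 members, at 8 mg/kg minus control (left, 4 slides) and 8 minus 1 mg/kg (right, 5 slides). Mgmt, Polk and Atr lie above 0 on every slide in both panels, Xrcc3 lies below 0 on every slide, and Neil1 lies on both sides.

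A wider list of 125 other repair genes put these members in context, and 114 of them were tested. At 8 mg/kg 4 rose and 1 fell against control, beside 4.09% of all features called in either direction, and the median difference was 0.05. An unadjusted p under 0.05 was reached by 29 of 114, beside 20.3% of all features. At 1 mg/kg 0 passed in limma, and 5 had an unadjusted p under 0.05, beside 6.86% of all features. Between the doses, 5 were higher and 3 lower at 8 mg/kg, beside 5.29% of all features called. The count against control was 0 without control replicate 1 or 8 mg/kg replicate 1, 1 without control replicate 2, control replicate 3 or slide 3, 2 without control replicate 4, and 3 without 8 mg/kg replicate 2, 4 or 5. Between the doses the count of 8 became 1 to 5 without any 1 of the 1 mg/kg mice or without 8 mg/kg replicate 1, 2, 3 or 5.

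Rad51b, a homologous recombination gene, was the gene that fell. Its ratios were 1.11, 1.47, 0.52 and 0.82 in controls, 1.12, 1.34, 0.65, 1.68 and 1.21 at 1 mg/kg, and -0.03, 0.10, 0.37, -0.17 and 0.27 at 8 mg/kg. The 8 mg/kg livers were below every liver of the other groups. Rad51b fell by 0.92 ± 0.20 against control on the log2 scale (adjusted p = 0.0247), and the difference between the doses was -1.09 ± 0.19 (adjusted p = 0.00496). The call between the doses held in 29 of 29 alternatives and the call against control in 21 of 29.

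The genes that rose against control came from separate pathways. Mad2l2, a subunit of the translesion polymerase zeta, rose by 0.50 ± 0.10 (adjusted p = 0.0158), with 8 mg/kg ratios of -0.13 to 0.22 against -0.65 to -0.33 in controls. Lig4, the ligase of end joining, rose by 0.45 ± 0.11 (adjusted p = 0.0363), with ratios of 0.04 to 0.47 against -0.38 to 0.07. Usp1, which takes ubiquitin off Fancd2, rose by 0.40 ± 0.08 (adjusted p = 0.0167), with ratios of -1.59 to -1.29 against -1.98 to -1.73. Rbbp8, which starts the trimming of broken ends, rose by 0.37 ± 0.09 (adjusted p = 0.0419), with ratios of -1.61 to -1.29 against -1.96 to -1.63. Groups did not overlap for Mad2l2, Usp1 and Rbbp8, and they overlapped for Lig4. The Rbbp8 call held in 9 of 29 alternatives and the Lig4 call in 14, against 21 for Mad2l2 and 22 for Usp1.

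Between the doses, Usp1, Lig4 and Mad2l2 were again higher at 8 mg/kg, by 0.34, 0.42 and 0.38. Fen1, the flap nuclease of long-patch base excision and lagging strand synthesis, was higher by 0.35 ± 0.09 (adjusted p = 0.0403), and Rad23b, the partner of Xpc, by 0.35 ± 0.08 (adjusted p = 0.0224). A second Rad23b probe gave 0.14 ± 0.10. Nhej1, an end joining factor, differed by -0.34 ± 0.09 (adjusted p = 0.0435), and Aptx, which clears aborted ligation ends, by -0.30 ± 0.07 (adjusted p = 0.0265). These calls between the doses held in 10 of 29 alternatives for Nhej1, 11 for Fen1, 15 for Aptx, 17 for Mad2l2, 18 for Lig4, 20 for Rad23b and 22 for Usp1.

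**Figure D4:**
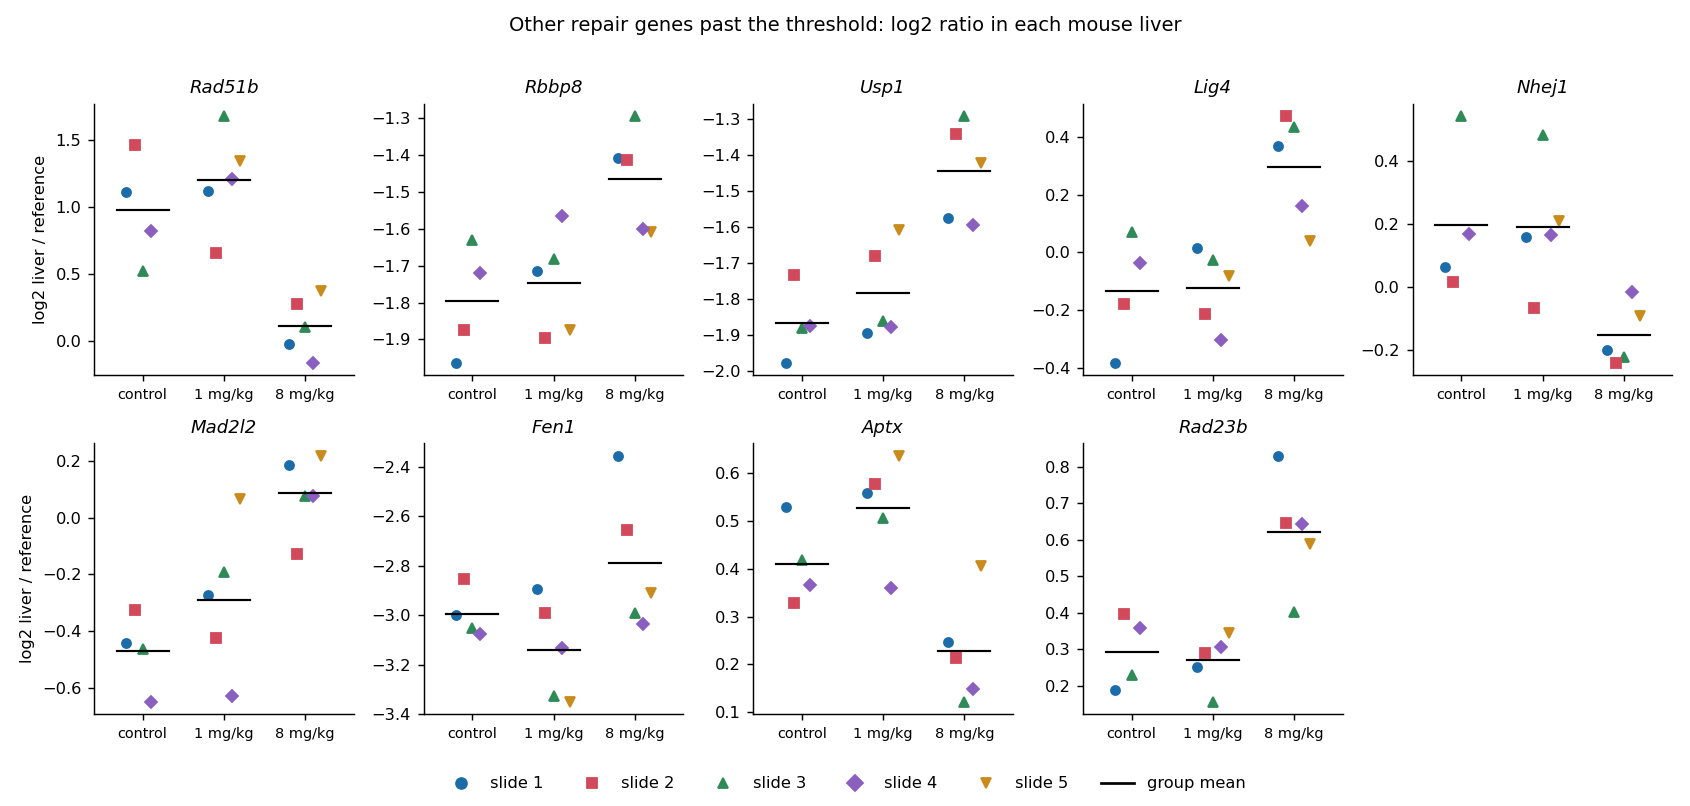
Log2 ratio of liver over reference (vertical axis, a scale for each gene) in each mouse for the 9 other repair genes that passed in a comparison, by group, with a colour and symbol for each slide and a bar at the group mean. The 8 mg/kg values of Rad51b, from -0.17 to 0.37, lie below all values of the other groups.

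Lists of genes linked to damage signalling and cell division were read beside the repair genes. Of 25 tested p53 targets outside repair, 12 rose and 0 fell against control, with a median of 0.36. Of 37 tested S phase genes 4 rose (median 0.16), and of 29 tested mitosis genes 2 rose (median 0.27). Over all features 2.73% were called higher and 1.36% lower at 8 mg/kg against control. At 1 mg/kg 0 genes of these lists passed in limma. There 2 p53 targets, 0 S phase genes and 1 mitosis gene had an unadjusted p under 0.05, beside 6.86% of all features. The mean ratio of the p53 list, after slide means were removed, was 0.21 to 0.49 in livers at 8 mg/kg against -0.26 to -0.12 in controls. The same mean over the 30 members was -0.03 to 0.06 at 8 mg/kg and -0.01 to 0.07 in controls, and over the other repair genes 0.003 to 0.08 and -0.06 to -0.01. These counts describe the lists, which were chosen with earlier results of these data known, and no test set one list against another.

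**Figure D5:**
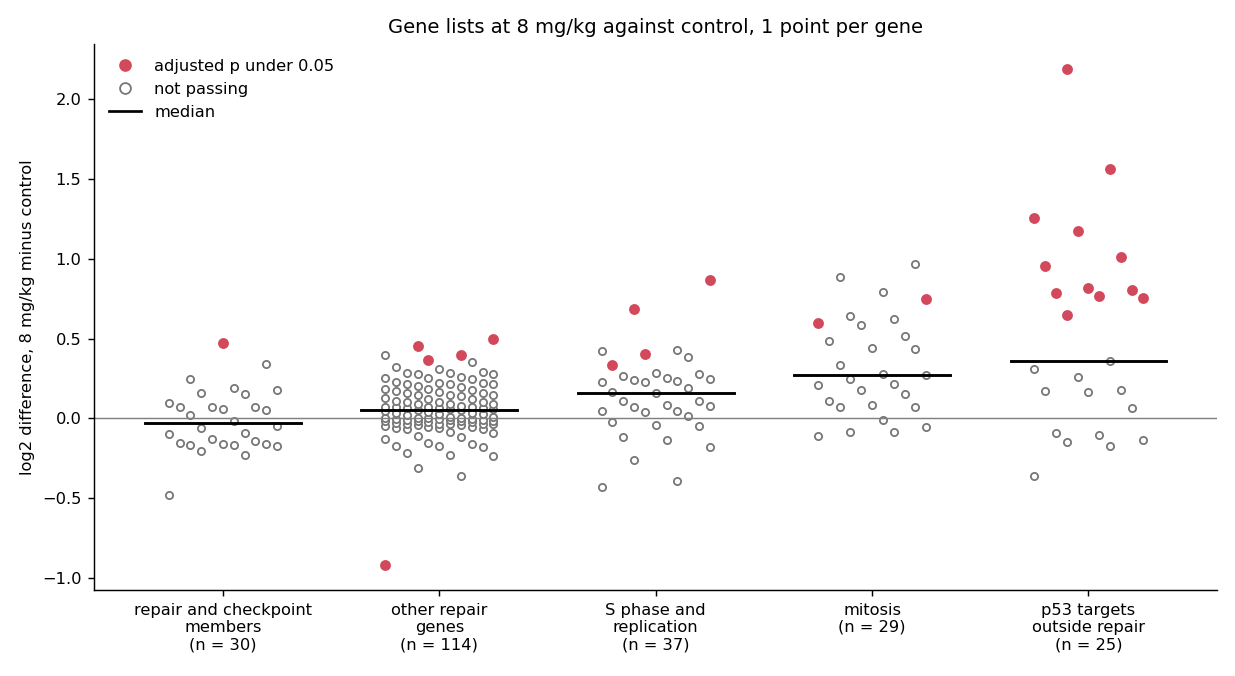
Log2 difference at 8 mg/kg minus control (vertical axis) for each gene of 5 lists, with filled points for adjusted p under 0.05 and a bar at each list's median. The medians run from -0.03 for the 30 repair and checkpoint members to 0.36 for the 25 p53 targets outside repair.

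Markers of other cells were read on the same arrays. Of 8 tested cholangiocyte markers 2 rose at 8 mg/kg, Prom1 by 1.24 ± 0.15 and Krt23 by 0.87 ± 0.22 on the log2 scale. Over all features 2.73% were called higher. Of the 8, 4 lay above 0 and 4 below, with a median of 0.00. The list's mean counts those 2 genes. After slide means were removed it was 0.06 to 0.19 at 8 mg/kg and -0.26 to -0.04 in controls. With slide means left in, the ranges overlapped, at -0.06 to 0.30 and -0.26 to 0.05. Cftr, a defining marker of cholangiocytes, was above background on no array. Of 15 hepatocyte markers 0 rose and 1, Cps1, fell against control, beside 1.36% of all features called lower. None of the 11 macrophage, 9 lymphocyte, 9 endothelial or 10 stellate markers tested passed against control at 8 mg/kg in limma. Of these, 1, 0, 1 and 0 had an unadjusted p under 0.05, beside 20.3% of all features. Between the doses most of these markers had lower values at 8 mg/kg: 14 of 15 hepatocyte, 10 of 11 macrophage, 9 of 9 lymphocyte, 9 of 9 endothelial and 9 of 10 stellate markers lay below 0. Their medians were -0.12, -0.12, -0.12, -0.15 and -0.11, beside -0.02 over all features. In the same order, medians at 1 mg/kg against control were 0.08, 0.18, 0.02, 0.17 and 0.20, beside 0.03 over all features. At 8 mg/kg against control they were -0.01, 0.02, -0.12, -0.02 and 0.03, beside 0.00. Between the doses 12389 of all 21975 features lay below 0, as did 2 of 4 neutrophil and 4 of 7 erythroid markers. Outside the cholangiocyte list, 1 marker passed in that comparison, Lrat of stellate cells, at -0.64 ± 0.15 (adjusted p = 0.0291). Of the 8 cholangiocyte markers, 1 passed and was higher at 8 mg/kg, with 4 above 0 and 4 below. The share of all features called was 5.29%. An unadjusted p under 0.05 was reached by 4 of 9 endothelial, 3 of 15 hepatocyte and 2 of 11 macrophage markers. It was also reached by 1 of 9 lymphocyte and 2 of 10 stellate markers, beside 21.3% of all features. The part of these cells in the repair gene values was not tested.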

How the data were processed

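Two-colour Agilent arrays compared each liver RNA (Cy5) with a universal mouse reference RNA (Cy3). Per the file headers, the deposited spot intensities were read with Feature Extraction 10.7.3.1, as median pixel intensity of spot and local background. The authors also deposited a table of linear ratios, whose log2 correlated at 0.992 to 0.995 with the ratios computed here, and which served as an alternative. How it was normalized is not given in the sources used.

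Intensities were background-corrected (normexp, offset 50) and loess-normalized within each array, with control spots at weight 0 and flagged spots left out. Probes well above background in the liver channel on at least 4 of the 14 arrays were kept, and the brightest probe stood for a gene. A linear model of all 14 arrays, with slide as a fixed block, compared the groups in limma 3.58.1 under R 4.3.3. P-values were adjusted by Benjamini-Hochberg over 21975 features, and SEs come from this fit. Files were read with data.table (version 1.17.8) and figures drawn with matplotlib 3.10.9. The fit was tested on simulated data.

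Groups come from the labels, which name the mice as separate animals. Symbols came from RefSeq accessions. The members, the other lists and the tests were chosen with earlier results of these data known. Values for every mouse are given for members past the adjusted threshold or with an unadjusted p under 0.05 at 8 mg/kg, and for the largest absolute difference in each role. The number of arrays limits the precision. The alternatives changed the background correction, normalization, filter, probe choice, slide term, arrays in the fit and array weights, and left out each array in turn.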

Additional observations from a re-analysis of the deposited data

Results flagged for a closer look

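Values of single mice were compared with the rest of their group by Dixon's gap test over the 90 groups of the 30 members tested, and 5 groups held a mouse far from the others. Chance gives about 1 such group in 20. Mutyh was high in 1 mg/kg replicate 2, at -1.80 against -2.73 to -2.57 in the other mice of that dose. Xrcc1 was high in 1 mg/kg replicate 4, at -1.28 against -1.45 to -1.41. Neil1 was low in 8 mg/kg replicate 2, at -0.60 against -0.40 to -0.32. Atm and Chek2 were low in control replicate 3, at -0.75 against -0.53 to -0.49 and at -1.81 against -1.07 to -0.97. The mice behind the Xrcc1, Neil1, Atm and Chek2 values all lay on slide 3. Why these mice differed was not tested.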

How the results depend on the processing

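Each comparison was recomputed under 29 alternatives. Against control at 8 mg/kg the count of members called was 1 in the reported analysis, 2 with the authors' deposited ratios or slide as a random block, 0 with only the arrays of the 2 groups, and 0 to 2 when 1 array was left out. At 1 mg/kg it was 0 in all 29. Between the doses it was 2 as reported, and 1 with the scanner's processed signals, the liver channel alone or no filter on dim probes. It was 3 with the authors' deposited ratios, slide as a random block, or only probes above background on every array of a group. It was 0 with no slide block, without the slide that held no control and without slide 3, and 0 to 3 when 1 array was left out. The replicate block, in place of the slide, gave 0 members both at 8 mg/kg against control (Mgmt 0.44, adjusted p = 0.0546) and between the doses. Deviations of same-numbered mice from their group means correlated at -0.43 to 0.24, with 5 of 13 pairs over 0.1. Those of mice on the same slide correlated at 0.09 to 0.66. Slide means were not removed for this check, so it cannot settle whether the replicate numbers pair the mice. Over all features the 8 mg/kg count of 898 became 274 with no slide block, 388 with processed signals and 304 with only the arrays of the 2 groups.

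Fanca at 8 mg/kg changed from -0.01 to 0.24 with processed signals, 0.070 with a smaller offset, 0.27 with the liver channel alone, 0.11 without slide 3 and 0.024 with array weights. It ran from -0.10 to 0.10 when 1 array was left out, and was above 0 without control replicate 3 and without 8 mg/kg replicate 2 or 4. No other member given for every mouse changed sign at 8 mg/kg in the 29 alternatives. The cause of these changes was not tested. Probes near background in the liver channel (Exo1, Chek1, Chek2, Rad54l) limit what can be said of their genes.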
